A study of Monopterus albus with 3 samples.

Results

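Internal coding exons of 3 to 30 bp, here called microexons, were examined in the transcript models that the authors assembled from gonads of *Monopterus albus*, the swamp eel. They were chosen by position and length alone: an exon counted if it was neither the first nor the last exon of its transcript, if the transcript had at least 4 coding exons with at least 300 bp in sum, and if its scaffold, start, end and strand had not been counted before. By this rule 727 of 105189 internal exons, or 0.691%, were microexons. Internal exons of 60 to 200 bp, of which there were 84223, served for comparison, and 7223 exons of 31 to 59 bp lay between these sets. The models come from polyadenylated RNA of 3 libraries, 1 from an ovary, 1 from an ovotestis and 1 from a testis of this fish, which changes sex during its life, sequenced without replicates. Each transcript carries 1 read coverage value for the series as a whole and none per gonad, so no gonad could be compared with another. How reads of the libraries were combined is not given in the sources used here. Depth is therefore known only as coverage, whose median over all 75480 transcripts was 37.2. Since 0 of the locus identifiers matched a RefSeq gene of the species, no gene could be named, and exons are given by their 1-based position on the authors' scaffolds. No genome of these scaffolds was used, and neither the bases of the exons nor their splice sites were read.

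Microexons are the shortest exons that the splicing machinery joins, with little room inside them for the sequences that normally help to define an exon. In vertebrates they are best known from neurons, where the splicing factor SRRM4 promotes their inclusion, and many of them add a few amino acids to a protein without changing the rest. An exon whose length is a multiple of 3 bases can be included or left out without shifting the reading frame downstream of it, while any other length shifts it. What microexons do in fish gonads cannot be read from exon positions, and the loci that held them are described below by structure only.

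The 727 microexons lay in 650 loci on 269 scaffolds, with 382 on the plus and 345 on the minus strand. Their median length was 26 bp, so most lay near the upper limit. The shortest was the only exon of 3 bp, 1 exon had 5 bp, 6 exons had 6 bp, and no exon of 4, 7 or 10 bp was found. At the upper limit, 103 exons had 30 bp, against 91 exons just outside it at 31 bp. The most frequent lengths were 27 bp with 116 exons and 30 bp with 103, and both were more frequent than any length beside them, as 54 exons had 26 bp, 61 had 28 bp and 49 had 29 bp. The same held at 24 bp with 56 exons, against 35 at 23 bp and 42 at 25 bp, and at 21 bp with 41 exons, against 27 at 20 bp and 31 at 22 bp. Counting only transcripts that met the rule with the exon inside them, 511 microexons were in 1 transcript, 181 in 2 and 35 in 3 or 4.

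**Figure D1:**
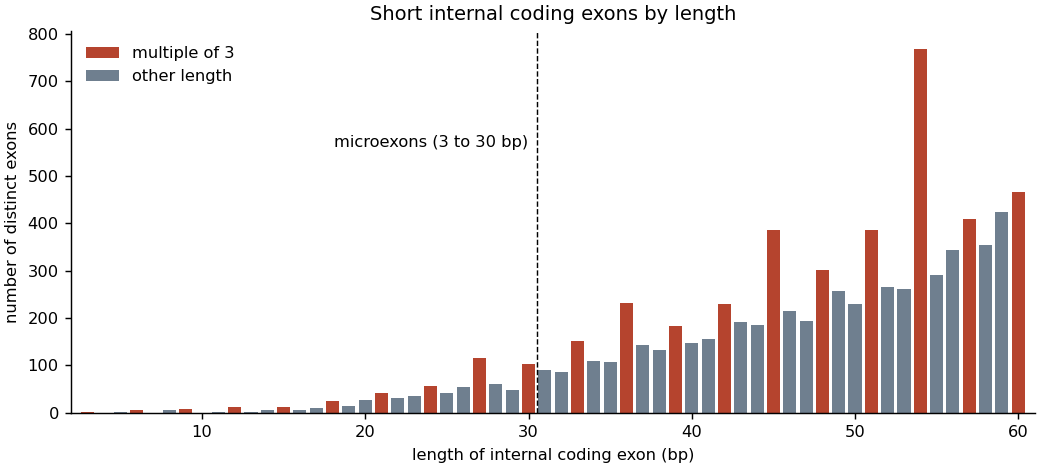
Number of distinct internal coding exons at each length from 3 to 60 bp, with multiples of 3 in red and other lengths in grey and the upper limit of microexons as a dashed line. Multiples of 3 stand above their neighbors at 21, 24, 27 and 30 bp, with 116 exons at 27 bp and 103 at 30 bp, and the peaks go on above the limit, with 386 exons at 45 bp and 767 at 54 bp.

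Microexons kept the reading frame more often than longer exons did. A multiple of 3 was the length of 381 of 727 microexons, or 52.4% (95% interval 48.7 to 56.1), against 39.9% of the exons of 60 to 200 bp (33620 of 84223, interval 39.6 to 40.3). The odds ratio was 1.66 (1.43 to 1.92), with p = 1.37e-11 by a two-sided Fisher's exact test, or 2.75e-11 after Benjamini-Hochberg adjustment over 6 such tests. If all lengths in the range were used equally, 35.7% of microexon lengths and 33.3% of the longer lengths would be multiples of 3, since 10 of 28 and 47 of 141 possible lengths are. A remainder of 1 base was found in 155 microexons (21.3%), against 30.5% of longer exons, and a remainder of 2 bases in 191 (26.3%), against 29.6%. Intervals here are exact binomial (Clopper-Pearson). They and the p-values cover counting error only, treat exons as independent although exons of 1 locus share a source, and say nothing about variation between animals.

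The share of multiples of 3 was highest in the shortest exons. It was 71.4% in 56 exons of 3 to 15 bp, 53.2% in 124 of 16 to 21 bp, 51.5% in 334 of 22 to 27 bp and 48.4% in 213 of 28 to 30 bp, and it was 46.7% in exons of 31 to 45 bp just above the limit. In the bins from 46 to 200 bp it stayed between 38.0% and 41.8%. The share of possible lengths that are multiples of 3 was not the same in all bins. It was 38.5% at 3 to 15 bp, 28.6% at 46 to 59 bp, 35.5% at 60 to 90 bp, 32.0% at 151 to 200 bp and 33.3% in the others. Within the 650 loci that held a microexon, 41.5% of the exons of 60 to 200 bp were multiples of 3.

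The second property was whether other transcripts of the same locus used the exon. An exon could be judged where at least 2 transcripts of the locus spanned its position, which held for 345 microexons (47.5%), against 41.2% of the exons of 60 to 200 bp. It was called skipped where an intron of a spanning transcript contained all of it, and constant otherwise. Of the 345 microexons, 100 were skipped, or 29.0% (24.3 to 34.1), against 2.79% of the longer exons (966 of 34668, 2.62 to 2.97). The odds ratio was 14.2 (11.2 to 18.1, two-sided Fisher's exact p = 1.75e-68, adjusted 1.05e-67). Among the 245 constant microexons, 205 were identical in every transcript that spanned them and 40 were overlapped by an exon with other ends. The remaining 382 microexons were spanned by a single transcript, so whether they were skipped could not be judged.

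The skipped share was highest in the shortest exons. It was 59.4% in exons of 3 to 15 bp (19 of 32), 34.9% at 16 to 21 bp (22 of 63), 26.7% at 22 to 27 bp (40 of 150) and 19.0% at 28 to 30 bp (19 of 100). Above the limit it was 10.2% at 31 to 45 bp, 6.85% at 46 to 59 bp, 4.35% at 60 to 90 bp and 2.08% at 151 to 200 bp. At single lengths, all 4 judged exons of 6 bp and 8 of 10 of 15 bp were skipped, but 0 of 3 of 8 bp and 0 of 18 of 26 bp. The split by remainder was not clean. Skipped were 2 of 3 of 14 bp and 4 of 16 of 23 bp, but only 1 of 3 of 9 bp and 2 of 6 of 12 bp. The exons of 24 bp were skipped in 16 of 33 cases, those of 27 bp in 17 of 56 and those of 30 bp in 15 of 51.

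**Figure D2:**
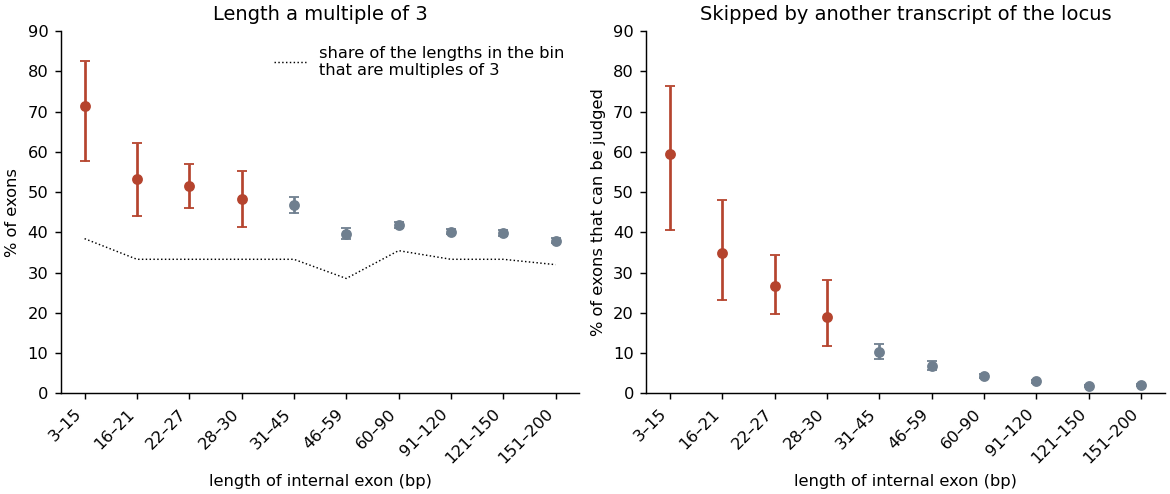
Share of internal exons whose length is a multiple of 3 (left, with the share of possible lengths in each bin as a dotted line) and share of judged exons skipped by another transcript of the locus (right), by exon length in bp, with exact 95% intervals. Microexon bins are red and longer bins grey. The left share is 71.4% at 3 to 15 bp and 48.4% at 28 to 30 bp, and the right share is 59.4% and 19.0% in the same bins.

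More spanning transcripts give more chances to see an exon skipped, and host loci of microexons had 2.00 transcripts on average, against 1.74 in other qualifying loci. With exactly 2 spanning transcripts, 22.6% of microexons were skipped (58 of 257), against 2.24% of longer exons. With 3 it was 46.1% (35 of 76), against 4.35%, and with 4 or more it was 58.3% (7 of 12), against 5.60%. The difference was thus present at each number of transcripts. It was also present when loci were split into 4 sets by coverage, where 23.3%, 31.4%, 31.4% and 29.9% of microexons from the lowest to the highest set were skipped, against 2.82%, 2.50%, 2.79% and 3.01% of longer exons. Within the host loci themselves, 2.66% of exons of 60 to 200 bp were skipped (102 of 3834).

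Most skipped microexons were left out between the same facing ends of their neighbors. In 75 of the 100 skipped microexons a skipping transcript joined the same ends of the neighboring exons that the including transcript used, against 417 of the 966 skipped longer exons (43.2%). This test and 4 further Fisher's exact tests named as added were chosen after the data were seen, with p-values adjusted over these 5. Here the odds ratio was 3.95 (2.47 to 6.32, Fisher's exact p = 1.39e-09, adjusted 3.47e-09). The share was nearer in skipped exons of 31 to 59 bp, at 64.9% (157 of 242). In skipped exons of 60 to 200 bp within host loci it was 52.0% (53 of 102). Microexons were not tested against these 2 sets. The other ends of the neighboring exons were not part of this count.

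In 9 of the 100 skipped microexons, a neighboring exon of the skipping transcript was longer by exactly the length of the microexon, against 3 of the 966 longer exons. At these places the coding sequence has the same length either way, and the bases that make up the difference are placed next to the neighboring exon in one model and apart from it in the other. Whether these are alternative exons or alternative placements of the same reads was not tested. Without them the skipped share was 27.1%.

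The skipped microexons were mostly multiples of 3. This was the length of 80 of the 100 skipped microexons, 80.0% (70.8 to 87.3), against 47.8% of the 245 constant ones (117, 41.4 to 54.2), with an odds ratio of 4.38 (2.52 to 7.59, Fisher's exact p = 2.37e-08, adjusted 3.55e-08). In exons of 60 to 200 bp the same comparison gave 56.8% of 966 skipped exons, against 40.1% of 33702 constant ones, with an odds ratio of 1.96 (1.73 to 2.24, Fisher's exact p = 7.70e-25, adjusted 2.31e-24). The difference between skipped and constant exons was larger in microexons, by 0.80 ± 0.288 (SE) in the natural log of the odds ratio (binomial regression, p = 0.00549, also chosen after the data were seen, outside these 5 tests and not adjusted). The constant microexons, at 47.8%, stood above the constant longer exons, at 40.1%, a difference that was not tested. Only coding exons were available, so a transcript whose coding sequence ended before an exon or began after it could not count as skipping it. Whether this left out more skipped exons of other lengths than of multiples of 3 was not tested.

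Of the 75 microexons that were skipped between the same neighbors, 66 were multiples of 3. A multiple of 3 keeps the frame by arithmetic where both transcripts start at the same position, while another length must change it before or after the exon. Among the 66, the coding sequence began and ended at the same positions in 38 and ended elsewhere in 8, and in 25 the transcripts differed by the microexon alone. In the remaining pairs the start differed, alone in 17 and with the end in 3, and here too the including and the skipping transcript were read in the same frame on both sides of the microexon. Of the other 9 microexons, whose length was no multiple of 3, 0 had an including and a skipping transcript that both began and ended at the same positions. Where both coding lengths are multiples of 3, such a pair needs another length difference to make up for the microexon. This count of 0 was therefore nearly fixed by arithmetic. The frame differed after the exon in 6 of these 9 and before it in 3.

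The microexons of the most covered loci with a skipped one show the forms this took. On scaffold 292, an exon of 21 bp from 812136 to 812156 on the plus strand was included in transcripts of 2796 and 2889 coding bp, with a summed coverage of 630.1, and skipped in a transcript of 2775 bp with a coverage of 167.9, so the including transcripts had 79.0% of the coverage. The transcript of 2796 bp, with 21 exons, was longer than the skipping one, with 20 exons, by 21 bp, the length of the microexon. On scaffold 99, an exon of 30 bp from 271680 to 271709 on the minus strand was in the transcript of 597 bp and coverage 874.7 and absent from that of 567 bp and coverage 467.7, a share of 65.2%. Both pairs kept the frame, and in both the including form was the more covered.

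On scaffold 166, an exon of 21 bp from 62552 to 62572 on the plus strand split the coverage almost evenly, with 256.3 in the including transcript of 1182 bp and 273.1 in the skipping one of 1161 bp (48.4%). On scaffold 63, an exon of 27 bp from 1758848 to 1758874 on the plus strand combined with a later choice at the start of another exon, which was 139 or 124 bp long. All 4 combinations were found: the including transcripts had 336 and 321 coding bp and coverages of 583.2 and 288.8, and the skipping ones had 309 and 294 bp and coverages of 338.1 and 224.4. The including pair had 60.8% of the coverage. Both choices at this locus changed the length by a multiple of 3.

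Other members of this set differed in more than the microexon. On scaffold 429, an exon of 21 bp from 42942 to 42962 on the plus strand was followed by a last exon of 20 bp in the including transcript (coverage 609.3), while the skipping transcript (1259.3) ended in another exon of 68 bp after the same exon of 169 bp. On scaffold 3, microexons of 29 bp from 9028941 to 9028969 and of 11 bp from 9028959 to 9028969 on the plus strand had the same end and starts that differ by a multiple of 3. The first had a coverage of 292.8 and the second 237.8, and the transcript that skipped both had 955.2. Neither length is a multiple of 3, and the last coding exon began at the same base in all 3 transcripts but was 57 bp long in the including ones and 29 bp in the skipping one. The skipping transcript also had an extra first coding exon of 46 bp. Its next exon began at 9024641, against 9024643 for the first exon of the including ones. The 2 exons of this locus are not independent. Among all microexons, 5 pairs overlapped each other, this one included, and they did not all share the end or differ by a multiple of 3.

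The exons of 3 and 5 bp and, of the 6 exons of 6 bp, the one in the most covered locus were unlike each other. The exon of 3 bp, a single codon by length, lay on scaffold 290 from 692619 to 692621 on the minus strand, between introns of 1518 and 532 bp, and its transcript had a coverage of 92.4, against 143.0 for the one that skipped it. It was 1 of the 9 exons made up by a neighbor: the next exon had 162 bp where the exon of 3 bp was present and 165 bp where it was not. The 2 transcripts also began with different first coding exons, of 45 bp in the including one and 84 bp in the skipping one. The exon of 5 bp, on scaffold 143 from 382238 to 382242 on the plus strand, was present in all 3 transcripts of its locus, the second of 23, 23 and 19 coding exons, and most of the later exons of this locus were 45, 54 or 99 bp long. That of 6 bp on scaffold 2, from 7962538 to 7962543 on the minus strand, was the sixth of 13 exons in a transcript of 1365 bp with a coverage of 166.7, and a transcript that was the same but for this exon, with 1359 bp, had a coverage of 1031.7, so the form with the added codons had 13.9% of the coverage.

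Skipped microexons were less often in the more covered form of their locus than skipped longer exons were. Over the 100 skipped microexons, the transcripts that held the exon had between 13.4% and 88.3% of the coverage of all transcripts spanning it, with a median of 43.6% (interval of the median 36.2 to 52.0) and quartiles of 23.6% and 66.7%. In the 966 skipped exons of 60 to 200 bp the median was 57.0% (54.9 to 59.3). The including transcripts had over 50% of the coverage for 41 of the 100 microexons, against 588 of the 966 longer exons (60.9%), an odds ratio of 0.447 (0.294 to 0.679, added Fisher's exact test, p = 0.000165, adjusted 0.000165). Multiples of 3 had a median of 44.6%, against 42.6% for the 20 other skipped microexons. In both sets 0 exons were below 10% and 0 above 90%. Cufflinks drops transcripts below a set fraction of their locus, and the fraction used is not stated, so rarer forms could not be seen.

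**Figure D3:**
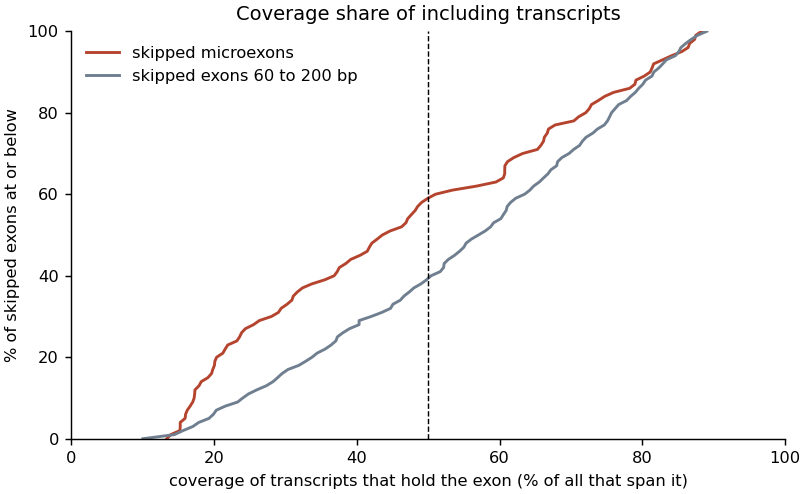
Cumulative share of skipped exons against the coverage of the transcripts that hold the exon, as a percent of the coverage of all transcripts that span it, for 100 skipped microexons (red) and 966 skipped exons of 60 to 200 bp (grey). The medians are 43.6% and 57.0%, and the red line lies above the grey one over most of the range, so more of the microexons have a low share.

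Constant microexons included exons of every remainder. The most transcripts holding a constant microexon were 4 of 4, in 4 exons. The 3 of these with the highest locus coverage were 22 bp on scaffold 376 from 375799 to 375820 on the minus strand, 26 bp on scaffold 99 from 1402280 to 1402305 on the plus strand, and 30 bp on scaffold 12 from 2165194 to 2165223 on the minus strand, and the other had 27 bp on scaffold 109 from 295497 to 295523. The first of these was the second exon of transcripts that otherwise ranged from 4 to 20 exons and from 543 to 2733 bp. The second was the nineteenth of 29 exons in a coding sequence of 4179 bp, and the third lay between exons of 72 bp on both sides.

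Microexons were overlapped by an exon with other ends in 13.6% of judged cases (47 of 345, 10.2 to 17.7), against 10.1% of the longer exons. The odds ratio was 1.40 (1.03 to 1.90, Fisher's exact p = 0.0391, adjusted 0.0469), and the difference was not past the threshold with 1 exon per locus, where the shares were 13.5% and 12.8% (Fisher's exact p = 0.722). Against exons of 31 to 59 bp the direction turned, with 13.6% of microexons and 16.0% of those exons (Fisher's exact p = 0.275). Among all 727 microexons, 50 had such an overlap, with 53 other forms between them. Of these forms, 51 shared the start or the end of the microexon, 43 were longer than it, and 16 were first or last in every transcript that held them. Of the 37 internal forms, 13 differed from the microexon by a multiple of 3, a share that was not compared with that of other exons. A form was counted once for each microexon that it overlapped. The 5 pairs of microexons that overlapped each other were thus counted from both sides, and the forms are not independent.

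The introns beside microexons had medians near those beside exons of 60 to 200 bp. Where several transcripts held an exon, the shortest intron on each side was taken. The upstream intron had a median of 371 bp, against 344 bp for exons of 60 to 200 bp, the downstream one 351 bp, against 331 bp, and the sum of both 958 bp (856 to 1048), against 916 bp (908 to 925). At least 1 of the introns was under 100 bp in 163 microexons, 22.4% (19.4 to 25.6), against 22.3% of the longer exons, an odds ratio of 1.01 (0.847 to 1.20, Fisher's exact p = 0.929). Against exons of 31 to 59 bp the share was lower in microexons, at 22.4% against 26.3% (Fisher's exact p = 0.0236, not adjusted). Both were under 100 bp in 25 microexons (3.44%), against 2.60%, and both were over 1000 bp in 71 (9.77%), against 9.51%. The shortest intron beside a microexon had 54 bp. At the other extreme, an exon of 30 bp on scaffold 3 from 5115110 to 5115139 on the minus strand stood between introns of 118667 and 46244 bp, an exon of 30 bp on scaffold 5 from 3916408 to 3916437 on the plus strand between introns of 105259 and 47547 bp, and an exon of 30 bp on scaffold 12 from 2249452 to 2249481 on the minus strand between introns of 60977 and 56078 bp. The exon on scaffold 12 was constant in 2 transcripts, and the other 2 were not judged.

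Introns differed instead between skipped and constant microexons. The introns of skipped microexons summed to a median of 1577.5 bp (1230 to 2050), against 899 bp (768 to 1045) for constant ones. Upstream the medians were 568.5 bp for skipped microexons and 366 bp for constant ones, and downstream 718.5 bp and 338 bp. An intron under 100 bp lay beside 4 of 100 skipped microexons, against 63 of 245 constant ones (25.7%), an odds ratio of 0.12 (0.0425 to 0.341, added Fisher's exact test, p = 7.75e-07, adjusted 9.69e-07). The longer exons showed a difference in the same direction, with 1493 bp for skipped exons and 887 bp for constant ones. Constant microexons were usually held by more transcripts than skipped ones, and a shortest intron taken over more transcripts can only be equal or shorter. The part of this in the differences was not tested. Microexons that were multiples of 3 had summed introns of 1102 bp, against 740.5 bp for the others.

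**Figure D4:**
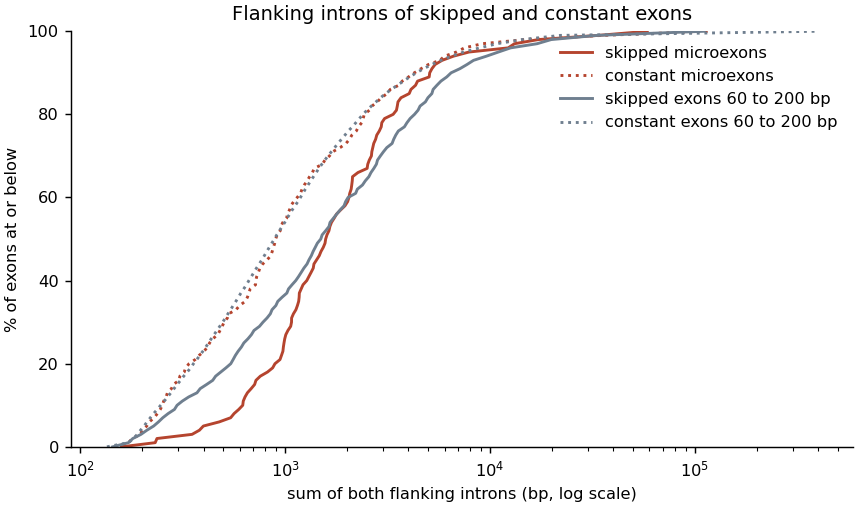
Cumulative share of exons against the sum of both flanking introns (bp, log scale) for skipped (solid) and constant (dotted) microexons (red) and exons of 60 to 200 bp (grey). The shortest intron on each side was taken. The lines of constant exons of both sets lie together, with medians of 899 and 887 bp, and those of skipped exons lie to the right, with medians of 1577.5 and 1493 bp.

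Microexons also differed in where they cut codons and in where their midpoints lay in the coding sequence. Of the 381 microexons that were multiples of 3, 164 began at the first base of a codon (43.0%, 38.0 to 48.2), against 61.6% of the longer exons that were multiples of 3, an odds ratio of 0.472 (0.385 to 0.579, added Fisher's exact test, p = 5.00e-13, adjusted 2.50e-12). One base of a codon preceded 37.3% of these microexons, against 25.3%, and 2 bases preceded 19.7%, against 13.2%. The midpoint of 185 of the 727 microexons (25.4%) was in the first 20% of the coding sequence, against 17.2% of longer exons. The odds ratio was 1.64 (1.39 to 1.94, added Fisher's exact test, p = 2.85e-08, adjusted 4.76e-08). In the last 20% the shares were 18.4% and 16.3%. In the parts of 20% between them they were 19.7% and 22.3%, 18.8% and 22.0%, and 17.6% and 22.1%. The midpoint of a short exon can lie nearer to either end of the coding sequence than that of a longer exon. Exon length, fixed by the rule, thus enters this test, which cannot tell a preference for the start from an effect of length. In number, 105 of the 727 microexons (14.4%) were the second exon of their transcript, against 10.7% of longer exons, and 11.6% were the last but one, against 11.1%.

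Exons next to microexons were shorter than those next to longer exons. The median neighbor had 103 bp upstream and 99 bp downstream of a microexon, against 120 and 122 bp for exons of 60 to 200 bp. These medians include first and last exons, which are cut at the start or stop codon, and the difference was not tested. For 37 microexons (5.09%) a neighbor was itself a microexon, against 0.978% of the longer exons, and 22 of the 893 transcripts with a microexon held adjacent ones.

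Loci that held a microexon were larger than others. The 650 host loci were 6.10% of the 10652 loci with a qualifying transcript, and they had a median of 13 coding exons, against 9 in the others, 1638 bp of coding sequence, against 1318.5 bp, a span of 12270 bp, against 7614 bp, and a coverage of 214, against 181. The difference in coverage was not present among loci of 16 to 29 exons (217, against 217) and was turned round at 30 or more (139, against 166). The share of loci with a microexon was 3.21% at 4 to 7 exons, 5.72% at 8 to 15, 10.8% at 16 to 29 and 18.2% at 30 or more. More exons give more chances to hold a microexon, so no test across loci was made. Within every bin of exon number, the median coding sequence of host loci was shorter than that of other loci. It was 633 bp against 757.5 bp at 4 to 7 exons and 1221 bp against 1449 bp at 8 to 15. At 16 to 29 exons it was 2577 bp against 2685 bp, and at 30 or more 4801.5 bp against 5298 bp. At a given exon number, a host locus holds at least 1 exon that is short by the rule.

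Few of the shortest microexons were found where coverage was low. Loci were split here into 4 sets by coverage at 38.6, 184 and 421, other limits than those used for the skipped share. From the lowest to the highest set all microexons together were 0.610%, 0.700%, 0.719% and 0.706% of internal exons. Those of 20 bp or less numbered 10, 42, 42 and 45 in the same sets, of 18360, 31001, 30740 and 25088 internal exons. The part of read depth and of read mapping in the number of the shortest exons was not tested.

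Several microexons in 1 locus were found in 62 loci, which held 139 of the 727. There were 52 loci with 2, 7 with 3, 2 with 4 and 1 with 6. In 12 of the 62 all microexons had the same length, in 30 all were multiples of 3, and in 16 none was. Of all 727 microexons, 52.4% were multiples of 3, and the counts of loci were not tested against this share. Scaffold 3 held the most microexons, 22 of 1887 internal exons in 17 loci, and scaffold 66 held 10 of 386 in 3 loci.

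The locus with 6 microexons lay on scaffold 66 from 2085806 to 2104774 on the plus strand and had microexons of 9, 21, 21, 27, 27 and 30 bp. Its longer transcript had 28 coding exons with 2715 bp and held 4 of them, and 6 of its exons had exactly 63 bp. The pair of 27 bp was adjacent in the other transcript, of 26 exons and 2160 bp, which had a coverage of 135.3, and was skipped in the longer one, which had 87.5, while the exons of 9 and 30 bp were in both. The first 6 exons of the other transcript, the pair among them, all lay within a single intron of the longer one. The transcripts thus began with different exons and differed in more than the pair. The locus with 4 microexons on scaffold 326, from 203144 to 236108 on the plus strand, had 4 of 27 bp and none of another length. All 4 were constant in 2 transcripts. Each of the 28 exons of the transcript of 1308 bp was a multiple of 3, and 20 were multiples of 9, among them 7 of 45 bp and 3 of 54 bp. The other locus with 4, on scaffold 325 from 239128 to 245453 on the minus strand, had microexons of 26, 20, 19 and 16 bp in this order, none a multiple of 3, in a transcript of 14 exons and 927 bp.

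**Figure D5:**
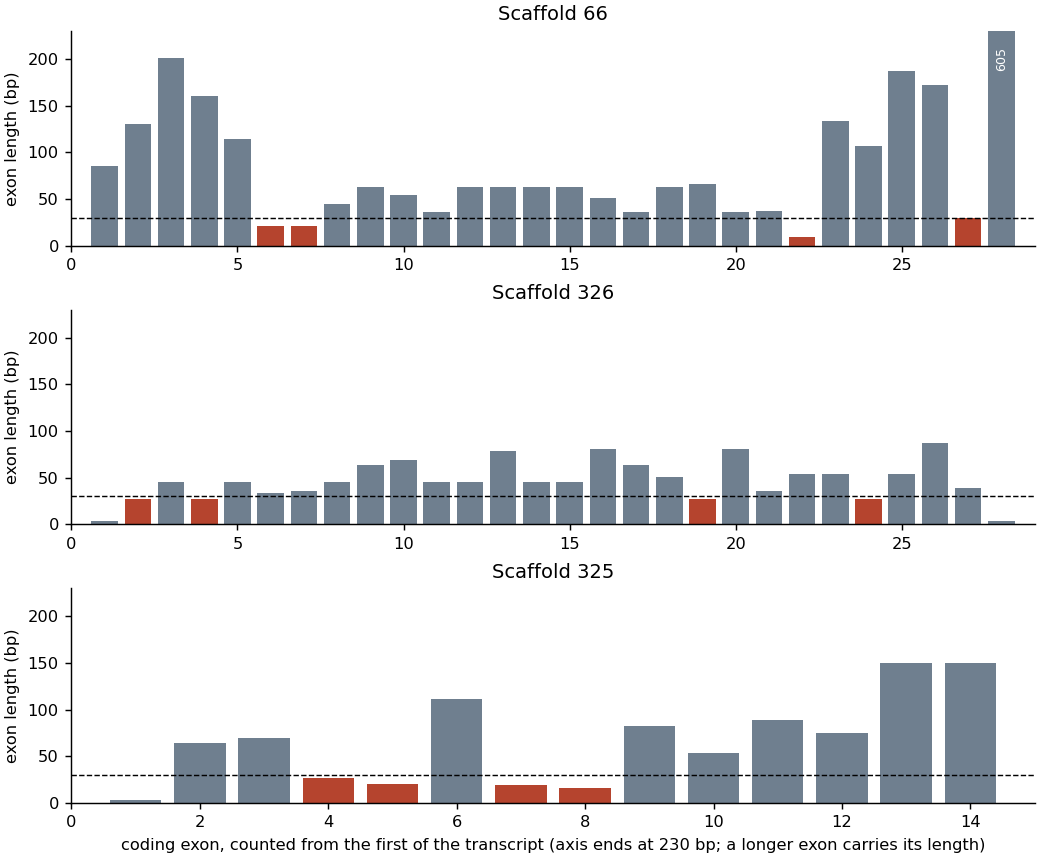
Lengths in bp of the coding exons, in transcript order, of the transcript with the most exons at the 3 loci with the most microexons (6, 4 and 4). Microexons are red, other exons grey, the dashed line is at 30 bp, and the last exon of the top locus, 605 bp, goes beyond the axis. The middle locus has 4 microexons of 27 bp among exons that are all multiples of 3, and the bottom locus has 4 of 16 to 26 bp close together.

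Of the 7 loci with 3 microexons, 2 had microexons of a single length and 5 had several lengths. The 2 uniform ones were also those with the most coding exons among the 7, by which the loci described here were chosen. On scaffold 109, from 43409 to 66690 on the minus strand, 3 microexons of 27 bp were part of 39 exons with 3351 bp, of which 31 were multiples of 3 and 17 multiples of 9. On scaffold 51, from 4601852 to 4729880 on the minus strand, 3 microexons of 24 bp were part of a locus whose transcript with the most exons had 34 with 6105 bp, of which 12 were multiples of 3. The microexon from 4627184 to 4627207 was in all 3 transcripts that spanned it, and the others were each in a single transcript, with 19.3% and 18.0% of the coverage, which was low at this locus (24.2 in sum). Runs of exons in multiples of 9, with 45 and 54 bp as common lengths, are known from fibrillar collagen genes, whose protein repeats a unit of 3 residues. No locus here was assigned to that family, because none carries a gene name.

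The most covered host loci held microexons that could not be judged. The highest, on scaffold 1061, had a single transcript of 6 exons and 462 bp with a coverage of 23261, and its second exon, from 5530 to 5551 on the minus strand, had 22 bp. The next 4 had microexons of 23 bp on scaffold 551 from 77379 to 77401 on the minus strand, 19 bp on scaffold 13 from 243413 to 243431 on the plus strand, 26 bp on scaffold 54 from 854705 to 854730 on the minus strand and 20 bp on scaffold 79 from 2243005 to 2243024 on the plus strand, in loci with coverages of 5355, 3276, 2542 and 2220. Locus coverages are sums over all transcripts of a locus. The transcripts that held these 4 microexons had coverages of 974.6, 1568.6, 360.1 and 1408.5, in the same order. None of the 5 lengths is a multiple of 3, and in each locus only 1 transcript spanned the microexon. Of all 727 microexons, 52.4% were multiples of 3 and 382 could not be judged.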

How the data were processed

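Reads of the ovary, ovotestis and testis libraries were mapped by the authors to scaffolds of their own assembly. The submitters' notes list Cufflinks 1.1.0, Bowtie 0.12.7 and TopHat 1.3.3, while a later Cufflinks is given in the paper. The authors then predicted an open reading frame per transcript with a hidden Markov model and kept its coding portion. What was deposited are exon positions and frames, with 1 FPKM and 1 coverage value per transcript over all libraries. First and last exons are cut at the start and stop codon and were left out for this reason. Distinct internal exons were counted with Python 3.11.15 and numpy 2.4.6, tests used scipy 1.17.1 and figures matplotlib 3.10.9. Of the qualifying transcripts, 99.6% had a coding length that is a multiple of 3. In these, frames recomputed from exon lengths matched those in all 185739 exon rows.

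Shares were compared by two-sided Fisher's exact tests with Benjamini-Hochberg adjustment and a threshold of 0.05, and the script was tested on simulated data. Exons were described by position under fixed rules: the 3 shortest, the 8 skipped ones with the most covered loci, the 3 constant ones in the most transcripts, the 3 with the longest introns, the 5 most covered host loci and the 5 loci with the most microexons, with ties broken by locus coverage or, for the last, by coding exons. The microexons, the comparison set and these rules were chosen with earlier results of these data known. Alternatives changed length limits, minimum exons, coding length, coverage, intron length and the comparison set. Gonads were not compared and splice sites were not analysed here, because the values are not per library and no genome of these scaffolds was used.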

Additional observations from a re-analysis of the deposited data

How the results depend on the processing

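Of 44 alternatives, 36 were planned and 8 chosen after seeing the data, and 36 repeated a Fisher's exact test. Of these, 31 kept direction and side of the threshold. The exceptions concerned exons with other ends, where 13.5% of microexons against 12.8% of longer exons were found with 1 exon per locus (Fisher's exact p = 0.722) and 13.6% of microexons stood against 16.0% of exons of 31 to 59 bp (p = 0.275), and introns under 100 bp. There the shares were 22.4% of microexons against 26.3% of exons of 31 to 59 bp (Fisher's exact p = 0.0236), 20.8% against 22.3% with an upper limit of 27 bp (p = 0.457) and 22.3% against 22.3% with a coverage of at least 10 (p = 1), all opposite in direction to the main comparison, which was itself not past the threshold. The other 8 gave a value alone. Some of the 44 alternatives could change little or nothing. No intron beside a microexon was under 50 bp, so that limit left all 727 microexons in place, and a lower length limit of 4 bp left 726. FPKM in place of coverage gave the same median share of including transcripts. The number of microexons was 514 with an upper limit of 27 bp, 735 with at least 3 exons, 749 with no minimum coding length and 676 with a coverage of at least 10. The share of multiples of 3 ranged from 50.6% to 54.1%, the skipped share from 21.7% (same neighbors) to 33.1% (up to 27 bp), that of multiples of 3 among skipped microexons from 78.8% to 82.8%, and the median coverage share of including transcripts from 42.2% to 43.6%. No paired analysis was possible because each gonad has 1 library and the values are for all of them together. Microexons of 20 bp or less were fewest in the least covered loci, which was not tested, 0 skipped microexons had including transcripts under 10% of the coverage, and 382 of 727 microexons could not be judged.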

Other observations

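Other short coding segments were not counted as microexons. First or last coding exons of 3 to 30 bp numbered 15196, but these end at the start or stop codon and not at the end of an exon, and 18 internal ones lay in transcripts with under 4 exons and 22 in transcripts of under 300 bp. Among exons of 31 to 59 bp, each multiple of 3 was more frequent than the lengths on both sides of it. Examples were 767 exons of 54 bp, 386 of 45 bp, 385 of 51 bp and 231 of 36 bp. The most frequent other length was 59 bp, with 424 exons. The share of multiples of 3 over all exons of 31 to 59 bp was 42.1%.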
